A study of Mus musculus with 8 samples.

Results

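Ankrd37, Ero1a, Stc1, Stc2, Bhlhe40, Mxi1, Cited2, Ndrg1, Ak4 and Narf are 10 classic response genes of the hypoxia-inducible factor (HIF), and their RNA was compared in mouse kidney. They were chosen by name with earlier results of these data known, as were the lists and pairs of genes set beside them. Each of the 10 was read from a probe set naming it alone, the one with the highest mean over the arrays if several. All 10 had such a probe set, among 19936 genes that did. Whole-kidney RNA was hybridized to 8 Affymetrix arrays, 4 labelled mutant and 4 labelled control, 1 female mouse each, on a mixed C57BL/6 - SV127 background. The labelled mutants carried floxed Vhl with the transgenes Pax8-rtTA and LC-1, while for the littermates labelled control no alleles are stated. Under doxycycline these transgenes make Cre recombinase where the Pax8 promoter is active, in the tubule epithelium, so the sample also holds vessels, interstitium and blood that are not meant to recombine. Both groups drank doxycycline at 0.2 mg/ml with 5% sucrose for 2 weeks from 3 weeks of age, then normal water for a further 1 week; kidneys were taken at 6 weeks of age.

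HIF is a transcription factor of an oxygen-regulated alpha subunit and a stable partner, ARNT. In normal oxygen the alpha subunit is hydroxylated on prolines, recognised by the von Hippel-Lindau protein VHL and degraded, so cells without VHL keep HIF active. HIF binds the short DNA words ACGTG and GCGTG near its target genes, and its targets include proteins that adapt metabolism, oxygen supply and protein folding, as well as repressors that limit the response itself.

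The group labels run against the targeted gene, and this bears on every direction given here. Vhl, the targeted gene, read 8.25, 8.32, 8.46 and 8.33 on the arrays labelled mutant, against 8.01, 7.99, 7.96 and 8.22 on the arrays labelled control. It was therefore higher, not lower, where the label says mutant (log2 difference 0.29, limma adjusted p = 0.0387, and 0.0558 with the replicate number as a block). The Vhl call was also lost in 6 of the 8 fits that leave out 1 array, with an adjusted p of up to 0.114. Which part of the transcript its probe set covers is not given in the sources used here. Of 33 HIF targets other than the 10, 28 were lower on the labelled mutant arrays by limma and 0 higher, where the textbook result of losing VHL is a rise. The directions below therefore compare labels and say nothing of what losing Vhl does. The kidney markers Umod, Lrp2 and Slc34a1 averaged 13.72, 13.30 and 13.77 in the arrays labelled mutant and 13.58, 13.36 and 13.62 in those labelled control. Array medians lay between 7.55 and 7.58 on the log2 scale, and correlations between arrays over genes were at least 0.987. The number of arrays, 4 a group, limits the precision.

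Of the 10 genes 6 were lower on the labelled mutant arrays, 0 were higher and 4 did not pass the test (limma on all genes, Benjamini-Hochberg adjusted p under 0.05). Over all 19936 genes 7.23% were called, 4.64% lower and 2.59% higher. With the replicate block 5 of the 10 were called lower, against 5.27% of all genes. The 6 that fell were Ankrd37, Ero1a, Stc1, Stc2, Bhlhe40 and Mxi1, and in each of them the 4 arrays labelled mutant lay below the 4 labelled control, as they did for 8.2% of all genes (the groups did not overlap in either direction for 14.8%). Ankrd37 and Ero1a were at least 2-fold lower, as were 0.286% of all genes. Cited2, Ndrg1, Ak4 and Narf had groups that overlapped. The estimates of all 10 were below 0, from -1.42 to -0.02, with a median of -0.42 against 0.03 over all genes tested; that of Ak4 turned above 0 after quantile normalization. In whole kidney, fewer cells of a type and less RNA per cell cannot be told apart.

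**Figure D1:**
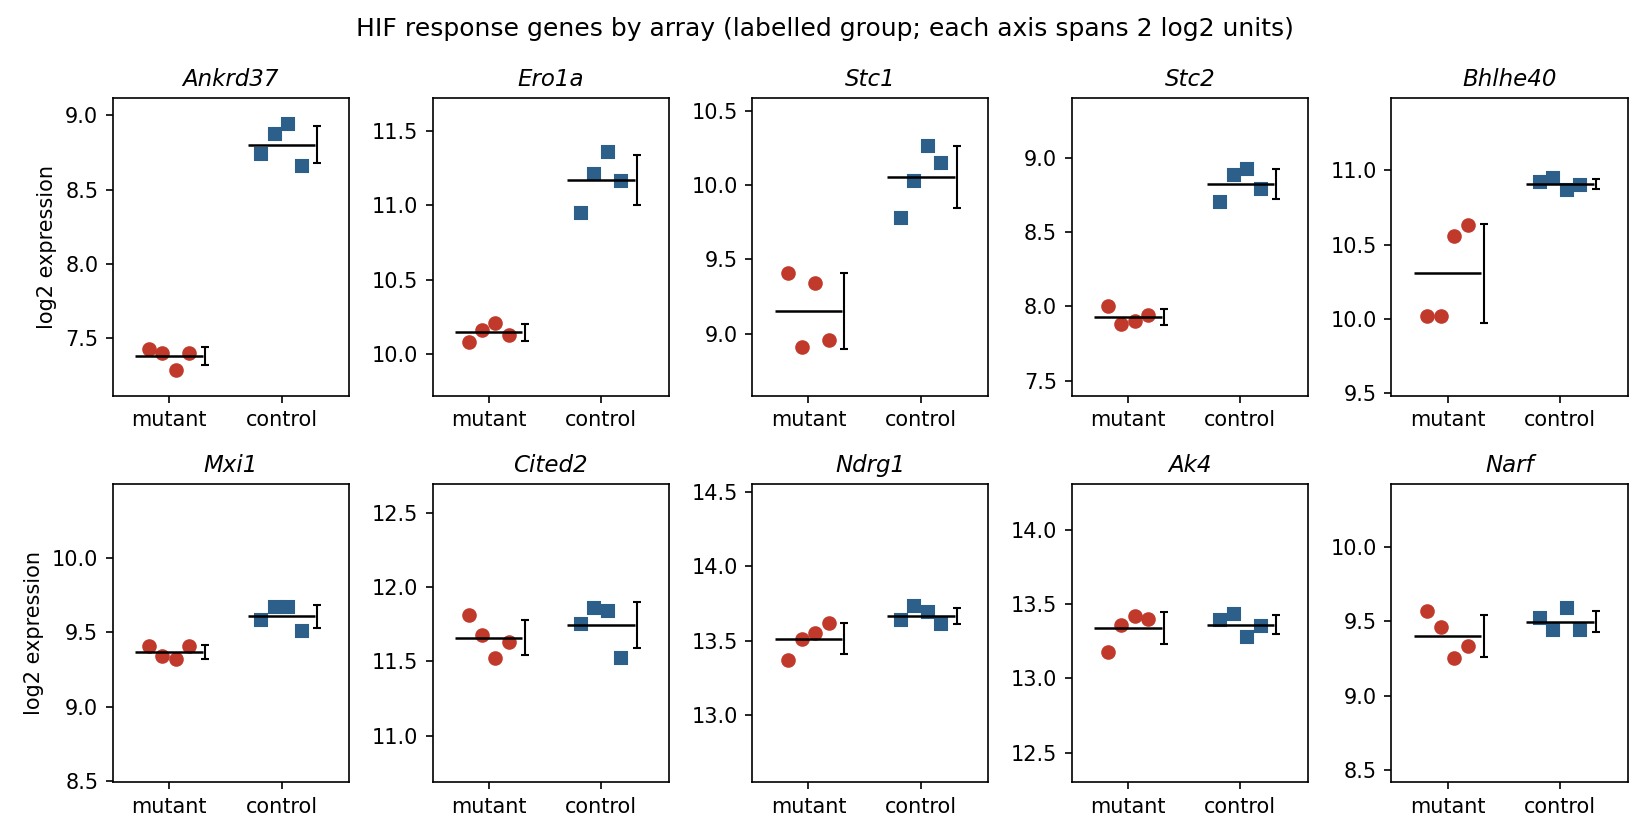
Log2 expression (vertical axes, each spanning 2 log2 units) of the 10 genes on the 4 arrays labelled mutant (red circles) and the 4 labelled control (blue squares), with group means as lines and SD as bars at the side. The groups are apart for Ankrd37, Ero1a, Stc1, Stc2, Bhlhe40 and Mxi1, and they overlap for Cited2, Ndrg1, Ak4 and Narf.

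Ankrd37 encodes a small ankyrin repeat protein, known in human cells mainly as a HIF target. It had the largest difference of the 10. Its probe set, 10578515, read 7.43, 7.40, 7.29 and 7.40 on the arrays labelled mutant, against 8.74, 8.87, 8.94 and 8.66 on those labelled control. The nearest values of the groups were 7.43 and 8.66, and the arrays of each group were close together (SD 0.0618 for mutant and 0.125 for control, n = 4 each). Ankrd37 was thus 2.68-fold lower on the labelled mutant arrays (log2 difference -1.42, SE 0.0697, limma adjusted p = 5.26e-06). Leaving out any 1 array kept the difference between -1.47 and -1.37 and the adjusted p at or below 5.97e-05.

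Its promoter is shown because it holds several copies of the HIF words close to a listed transcript start of a gene with a large difference. The sequence runs from 250 bases before to 50 bases after that start, from RefSeq on GRCm38.p6. For Ankrd37 the start lies inside the gene, at -564 bases from its edge in chromosome coordinates. For the other genes whose promoters are printed below it lies at 0. Capitals mark ACGTG or GCGTG on either strand.
Ankrd37 promoter, chr8:45999801-46000100, minus strand: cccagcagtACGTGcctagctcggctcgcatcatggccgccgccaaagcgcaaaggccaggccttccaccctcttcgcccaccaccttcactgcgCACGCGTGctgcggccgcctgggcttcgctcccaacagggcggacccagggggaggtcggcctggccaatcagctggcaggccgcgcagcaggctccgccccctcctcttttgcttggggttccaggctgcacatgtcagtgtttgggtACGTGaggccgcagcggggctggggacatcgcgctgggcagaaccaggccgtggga
ACGTG begins 241 and 6 bases before the start, and GCGTG is found at 155 bases before it on the opposite strand and at 152 on the strand printed, these last 2 overlapping each other. Of the 32851 windows of this kind in the table, 43.8% hold at least 1 of the words (19.6% ACGTG, 32.4% GCGTG), and 8.93% hold 3 or more matches. A match of this kind is a description and not a binding site.

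The genes whose pattern over the 8 arrays was most like that of Ankrd37 were Mif, Dll4 and Fgf11, with Pearson correlations of 0.998, 0.997 and 0.996 (n = 8 arrays, which share the difference between the groups). Mif, a cytokine gene, averaged 12.24 ± 0.0400 in the arrays labelled mutant and 13.03 ± 0.0468 in those labelled control (SD, n = 4 each). Dll4, the Notch ligand of growing vessels, averaged 8.32 ± 0.0497 in the arrays labelled mutant and 8.84 ± 0.0596 in those labelled control (SD, n = 4 each). Fgf11, an intracellular member of the fibroblast growth factor family, was 3.21-fold lower on the labelled mutant arrays.

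Ero1a and the stanniocalcins belong to the secretory pathway. Ero1a is the oxidase of the endoplasmic reticulum that keeps protein disulfide isomerase able to form disulfide bonds. Its probe set, 10419198, read 10.08, 10.16, 10.21 and 10.13 on the arrays labelled mutant, against 10.95, 11.21, 11.36 and 11.16 on those labelled control. The nearest arrays of the groups were at 10.21 and 10.95, and Ero1a was 2.04-fold lower on the labelled mutant arrays (log2 difference -1.03, SE 0.0814, limma adjusted p = 0.000111). Ero1b, the paralog of secretory tissues such as the pancreas, read 7.48 to 7.68 in the arrays labelled mutant and 7.48 to 7.77 in those labelled control and did not pass (log2 difference -0.10, limma adjusted p = 0.498). The difference of Ero1a minus that of Ero1b was -0.93 on the log2 scale, and -1.03 to -0.85 with any 1 array left out. Its exact two-sided permutation p was 0.0286, the smallest that 4 against 4 arrays allow, and 0.114 after adjustment over the 8 pairs of paralogs compared.

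Stc1 and Stc2 encode secreted glycoprotein hormones, first known as calcium regulators of fish, and STC2 is also induced by stress of the endoplasmic reticulum. Stc1, probe set 10416181, read 9.41, 8.91, 9.34 and 8.96 on the arrays labelled mutant, against 9.78, 10.03, 10.26 and 10.15 on those labelled control. Mutant arrays 1 and 3 were the higher ones of their group, and control array 1, the lowest of its own, still lay above them. Stc2, probe set 10384961, read 8.0, 7.88, 7.90 and 7.94 on the arrays labelled mutant, against 8.70, 8.88, 8.92 and 8.79 on those labelled control. Both stanniocalcins were lower in the arrays labelled mutant, again with groups apart, Stc1 1.87-fold (log2 difference -0.90, SE 0.136, limma adjusted p = 0.00388) and Stc2 1.86-fold (log2 difference -0.89, SE 0.0612, limma adjusted p = 4.02e-05). The difference between their log2 differences was -0.01, and -0.08 to 0.06 with any 1 array left out, with an exact permutation p of 0.971. The spread within the arrays labelled mutant was 0.259 for Stc1 and 0.0516 for Stc2 (SD of log2 values, n = 4).

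The promoters of Ero1a and Stc2 are printed to be set beside that of Ankrd37, with the same capitals and credit.
Ero1a promoter, chr14:45318523-45318822, minus strand: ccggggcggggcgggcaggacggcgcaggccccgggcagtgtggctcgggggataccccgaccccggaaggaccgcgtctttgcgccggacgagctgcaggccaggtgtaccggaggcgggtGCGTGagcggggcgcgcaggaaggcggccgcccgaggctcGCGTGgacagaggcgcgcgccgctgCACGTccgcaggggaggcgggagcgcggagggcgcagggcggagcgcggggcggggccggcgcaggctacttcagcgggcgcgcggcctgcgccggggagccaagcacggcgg
Stc2 promoter, chr11:31370012-31370311, minus strand: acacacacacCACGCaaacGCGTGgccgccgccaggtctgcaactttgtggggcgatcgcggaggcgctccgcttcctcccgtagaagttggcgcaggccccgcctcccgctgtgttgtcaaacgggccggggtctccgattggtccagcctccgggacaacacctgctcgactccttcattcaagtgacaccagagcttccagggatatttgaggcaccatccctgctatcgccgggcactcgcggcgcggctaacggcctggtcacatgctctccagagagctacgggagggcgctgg
The Ero1a window holds GCGTG at 128 and 88 bases before the start and ACGTG, on the opposite strand, at 63. In the Stc2 window no ACGTG is found, and 2 copies of GCGTG, 1 on each strand, lie 240 and 231 bases before the start.

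Genes of protein folding and the unfolded protein response were read beside Ero1a and Stc2, since these are also targets of that response. Of the 17 genes in that list 3 were lower on the labelled mutant arrays, 0 higher and 14 did not pass, with a median log2 difference of -0.15. Pdia4, a disulfide isomerase, was 1.27-fold lower, the chaperone gene Hspa5 1.24-fold and P4hb, a disulfide isomerase itself oxidised by ERO1 enzymes, 1.18-fold (limma adjusted p = 0.0201, 0.0350 and 0.0474). With the replicate block P4hb lost its call and Hsp90b1, another chaperone gene, gained one (limma adjusted p = 0.0765 and 0.0419), which left 3 lower, and over fits without 1 array the number called lower ran from 0 to 4. P4hb lost its call in 7 of those 8 fits (every one but that without mutant array 3), Hspa5 in 5 (mutant array 1, 2 or 4 or control array 1 or 3 left out) and Pdia4 in 3 (mutant array 2 or 4 or control array 3 left out), with an adjusted p of up to 0.130, 0.0963 and 0.0626. Atf4 and Ddit3, transcription factors of that response named after their values were seen, had log2 differences of -0.10 and -0.06 (limma adjusted p = 0.562 and 0.730). The part of these genes in the differences of Ero1a and Stc2 was not tested.

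Bhlhe40 and Mxi1 encode transcriptional repressors. BHLHE40, also called DEC1, binds the E-box word CACGTG and represses clock and metabolic genes. Bhlhe40, probe set 10540472, read 10.02, 10.02, 10.56 and 10.63 on the arrays labelled mutant, against 10.92, 10.95, 10.87 and 10.90 on those labelled control. Mutant arrays 1 and 2 were far below mutant arrays 3 and 4, while the control arrays were nearly equal (SD 0.331 for mutant and 0.0306 for control, n = 4 each). Bhlhe40 was 1.52-fold lower on the labelled mutant arrays (log2 difference -0.60, SE 0.136, limma adjusted p = 0.0261).

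The Bhlhe40 call was lost in 6 of the 8 fits that leave out 1 array, while the log2 difference stayed between -0.71 and -0.51. Leaving out mutant array 1, mutant array 2 or a single control array, whichever it was, moved the limma adjusted p past the threshold (0.0521 to 0.0744). The log2 difference was -0.32 without mutant arrays 1 and 2 together and -0.89 without mutant arrays 3 and 4 together. Both fits were added after the values were seen and split the arrays by their Bhlhe40 readings, so their p-values are not given. Mutant arrays 1 and 2 also had the highest lower quartiles of the 8 arrays, 6.283 and 6.281 against 6.265 or less, and the part of that in the Bhlhe40 difference was not tested. Its paralog Bhlhe41, or DEC2, read 6.99, 7.06, 7.09 and 6.88 on the arrays labelled mutant, against 7.37, 7.42, 7.34 and 6.96 on those labelled control. Control array 4 lay among the arrays labelled mutant, and the gene did not pass (log2 difference -0.27, limma adjusted p = 0.156). Nor was Bhlhe41 called in 7 of the 8 fits that leave out 1 array, with an adjusted p of up to 0.327. The exception was the fit without control array 4 (limma adjusted p = 0.0114), an array singled out here by its Bhlhe41 reading. The difference of Bhlhe40 minus that of Bhlhe41 was -0.34 (exact permutation p = 0.200, adjusted over the 8 pairs 0.267).

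Clock genes were read beside Bhlhe40. Of 12 measured clock genes 2 were higher in the arrays labelled mutant and 0 lower, with a median log2 difference of 0.08. Dbp, an output gene of the clock, read 11, 10.93, 10.61 and 10.60 on the arrays labelled mutant, against 10.60, 10.15, 10.12 and 9.92 on those labelled control. Mutant arrays 1 and 2, the lowest for Bhlhe40, were the highest for Dbp, but not for Tef, at 10.57 and 10.76 against 10.49 and 10.62 on mutant arrays 3 and 4. The split of these arrays was not tested. Dbp was 1.51-fold and Tef, a related transcription factor gene, 1.30-fold higher in the arrays labelled mutant (limma adjusted p = 0.0375 and 0.0256), and each lost the call in 5 of the 8 fits that leave out 1 array. Control arrays 2, 3 and 4 were among these for both genes, with mutant arrays 1 and 2 for Dbp and mutant arrays 2 and 4 for Tef. Cry1, a clock repressor gene named after its values were seen, read 7.53, 7.86, 8.12 and 8.33 on the arrays labelled mutant, against 8.16, 8.39, 8.30 and 8.65 on those labelled control. It did not pass (limma adjusted p = 0.169), but did with the replicate block (0.0288), as did Nr1d1 in the other direction (0.0324), so that the list then had 3 higher and 1 lower. The part of the clock in the Bhlhe40 difference was not tested.

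**Figure D2:**
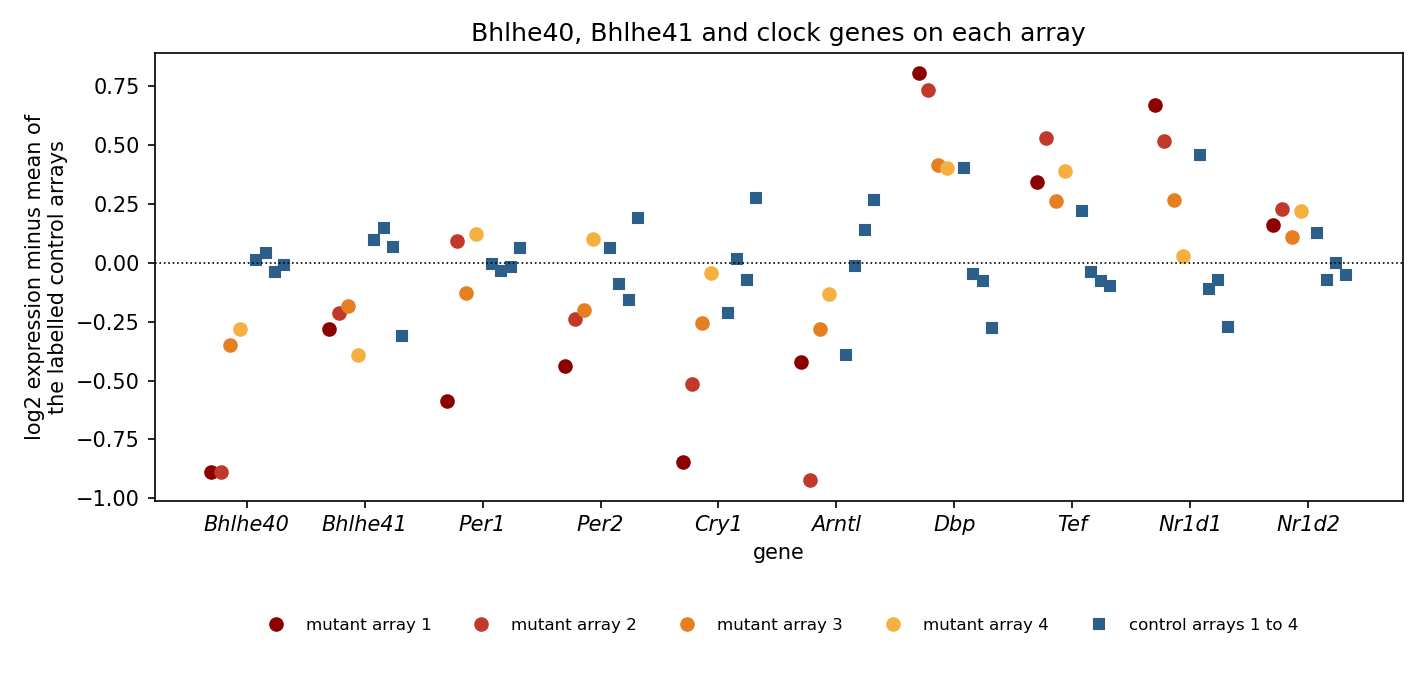
Log2 expression minus the mean of the labelled control arrays (vertical axis) for Bhlhe40, Bhlhe41 and 8 clock genes, with the 4 arrays labelled mutant as circles and the 4 labelled control as squares. Mutant arrays 1 and 2 are lowest for Bhlhe40 and highest for Dbp and Nr1d1.

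MXI1 pairs with MAX and represses genes that MYC, the other partner of MAX, activates. Mxi1, probe set 10463930, read 9.41, 9.34, 9.32 and 9.41 on the arrays labelled mutant, against 9.58, 9.67, 9.67 and 9.51 on those labelled control. The groups were apart, but only by the step between 9.41 and 9.51. Its difference was the smallest of the 6 that passed, 1.18-fold lower (log2 difference -0.24, SE 0.0569, limma adjusted p = 0.0317). The call was lost with the replicate block (limma adjusted p = 0.0668) and when control array 1, 2 or 3, or mutant array 2, 3 or 4, was left out (0.0538 to 0.0970). Mxd4, another MAX partner of the same family, had a log2 difference of -0.04 (limma adjusted p = 0.718), and that of Mxi1 minus it was -0.20 (exact permutation p = 0.0571, adjusted over the 8 pairs 0.152).

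Myc itself was lower as well. It read 8.64, 8.18, 8.48 and 8.74 on the arrays labelled mutant, against 10.43, 10.60, 10.36 and 11.03 on those labelled control, with all 4 of the first group well below the second. Myc was 4.27-fold lower on the labelled mutant arrays (log2 difference -2.10, SE 0.156, limma adjusted p = 7.05e-05), and it was the 1 gene called among 11 of the MYC and MAX network, whose median difference was -0.03. Max, their common partner, averaged 9.95 in both groups.

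**Figure D3:**
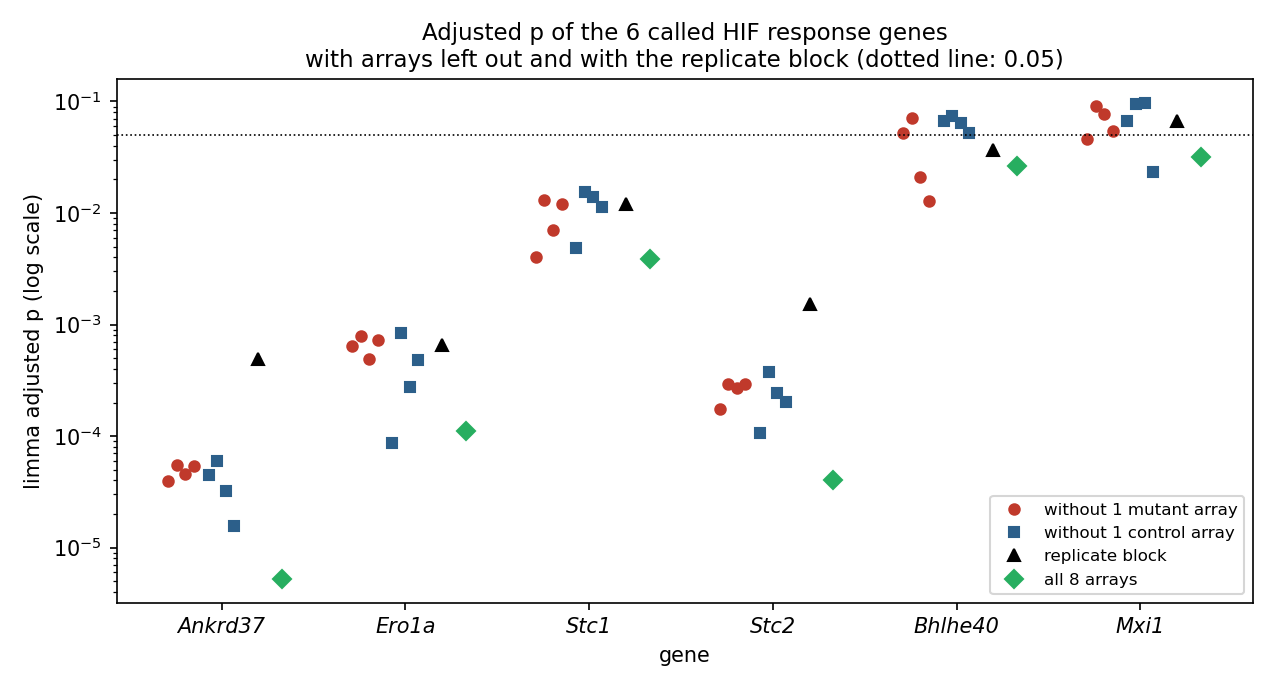
Limma adjusted p (vertical axis, log scale) of the 6 genes that passed, with all 8 arrays (green diamonds), without 1 mutant array (red circles), without 1 control array (blue squares) and with the replicate block (black triangles). Ankrd37, Ero1a, Stc1 and Stc2 stay below the dotted line at 0.05 in every fit shown, and Bhlhe40 and Mxi1 cross it.

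Cited2, Ndrg1, Ak4 and Narf did not pass in the fit with all arrays or in any fit with 1 array left out. CITED2 competes with HIF alpha subunits for the coactivators CBP and p300 and so limits the response. Cited2, probe set 10361828, read 11.81, 11.68, 11.52 and 11.63 on the arrays labelled mutant, against 11.75, 11.86, 11.84 and 11.52 on those labelled control. The ranges were almost the same, 11.52 to 11.81 and 11.52 to 11.86, and the log2 difference was -0.09 with a 95% interval from -0.28 to 0.11 (limma adjusted p = 0.609). Cited4, a related coactivator-binding gene, had an estimate of the opposite sign, 0.22, and did not pass either (limma adjusted p = 0.173). None of the 5 genes read for CBP, p300 and their binding (Ep300, Crebbp, Cited1, Cited4 and Hif1an) passed limma. Of them 1, Cited4, had an unadjusted p under 0.05.

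Ndrg1 encodes a stress-induced cytoplasmic protein repressed by N-MYC. Its probe set, 10429140, read 13.37, 13.51, 13.55 and 13.62 on the arrays labelled mutant, against 13.64, 13.73, 13.69 and 13.61 on those labelled control. Only mutant array 4 and control array 4 changed places, by 0.01. The log2 difference was -0.15, with an interval from -0.29 to -0.01 and an unadjusted p of 0.0369, but the limma adjusted p over all genes was 0.197. These readings were high on a scale whose largest value on any array was 14.66. Its paralog Ndrg2 had a log2 difference of -0.03 (limma adjusted p = 0.861).

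AK4 is an adenylate kinase of the mitochondrial matrix. Of 2 probe sets that name Ak4 alone, the one used, 10472923, read 13.18, 13.36, 13.42 and 13.40 on the arrays labelled mutant, against 13.39, 13.43, 13.28 and 13.35 on those labelled control. Mutant array 1 was the lowest of the 8, and the other 7 lay within 13.28 to 13.43. The log2 difference was -0.02, with an interval from -0.17 to 0.13 (limma adjusted p = 0.889). Its sign turned to 0.07 after quantile normalization. The identifier of that probe set lies between those of Cdca7 and Sp3os, which are not on the chromosome of Ak4 in the GRCm38.p6 gene table, whereas the second, 10506269, lies between Raver2 and Dnajc6, and Dnajc6 is the next coding gene after Ak4. Which copy of the sequence the first one reads was not tested. The second read 11.76, 11.84, 12.01 and 11.87 on the arrays labelled mutant, against 11.95, 11.95, 11.75 and 11.94 on those labelled control, a log2 difference of -0.03. Ak3, a matrix paralog that uses guanosine triphosphate, had an estimate of 0.15 (limma adjusted p = 0.168). The Ak4 difference minus that of Ak3 was -0.17 (exact permutation p = 0.0286, the smallest possible, and 0.114 adjusted over the 8 pairs).

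NARF is a nuclear protein that binds prelamin A. Narf, probe set 10383532, read 9.57, 9.46, 9.25 and 9.33 on the arrays labelled mutant, against 9.52, 9.44, 9.59 and 9.44 on those labelled control. Mutant arrays 1 and 2 lay within the range of the control arrays, and mutant arrays 3 and 4 below it. The log2 difference was -0.10, with an interval from -0.26 to 0.07 (limma adjusted p = 0.490), and its relative Ciao3 had one of -0.02 (0.867).

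Promoters of Cited2 and Narf, genes that did not pass, are printed for comparison with the first 3.
Cited2 promoter, chr10:17722978-17723277, plus strand: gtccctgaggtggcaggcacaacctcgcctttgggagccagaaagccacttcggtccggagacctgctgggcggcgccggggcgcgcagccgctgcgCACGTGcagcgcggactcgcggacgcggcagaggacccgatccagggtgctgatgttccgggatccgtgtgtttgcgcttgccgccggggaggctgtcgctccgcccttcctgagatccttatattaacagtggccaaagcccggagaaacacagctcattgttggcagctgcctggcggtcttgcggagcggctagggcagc
Narf promoter, chr11:121236986-121237285, plus strand: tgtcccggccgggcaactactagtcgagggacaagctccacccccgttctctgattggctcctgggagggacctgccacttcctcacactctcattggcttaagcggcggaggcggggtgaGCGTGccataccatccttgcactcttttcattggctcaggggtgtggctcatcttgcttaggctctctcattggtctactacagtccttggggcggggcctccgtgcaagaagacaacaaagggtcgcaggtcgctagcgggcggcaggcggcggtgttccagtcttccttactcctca
The Cited2 window holds the E-box CACGTG, in which ACGTG can be read on both strands, 153 and 152 bases before the start; 7.15% of all windows contain CACGTG. Narf has a single GCGTG at 129 bases before the start. Among the 5 promoters printed, the words were thus found in genes that passed and in genes that did not. For Ak4 the table gives 4 windows, each with 2 or 3 matches, and for Mxi1 it gives 3, of which 2 hold 1 ACGTG each. Windows 1, 2 and 3 of Ak4 overlap and hold the same copies of GCGTG. The Ak4 starts lie 2811 to 3225 bases inside the gene edge, and the Mxi1 starts with a match 19285 and 19567 bases inside it. In all, 7 of the 10 genes had a window, and Bhlhe40, Ndrg1 and Stc1 are named only.

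The 8 pairs of paralogs, one of them Stc1 with Stc2, can be read together. Of the 7 paralogs outside the list none passed limma, which says little where 7.23% of all genes did. An unadjusted p under 0.05 was found for 3 of them (Bhlhe41, Cited4 and Ak3), and the share of all genes with such a p was not counted. None of the 8 contrasts passed after adjustment, and 2 (Ero1a with Ero1b and Ak4 with Ak3) had the smallest permutation p possible. Since that p is 0.0286, no contrast could pass the adjustment over 8 pairs unless at least 5 reached it. Member minus paralog, the log2 difference was -0.31 for Cited2 with Cited4, -0.13 for Ndrg1 with Ndrg2 and -0.08 for Narf with Ciao3 (exact permutation p = 0.171, 0.0857 and 0.429). A contrast that did not pass does not show that the paralogs moved alike.

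**Figure D4:**
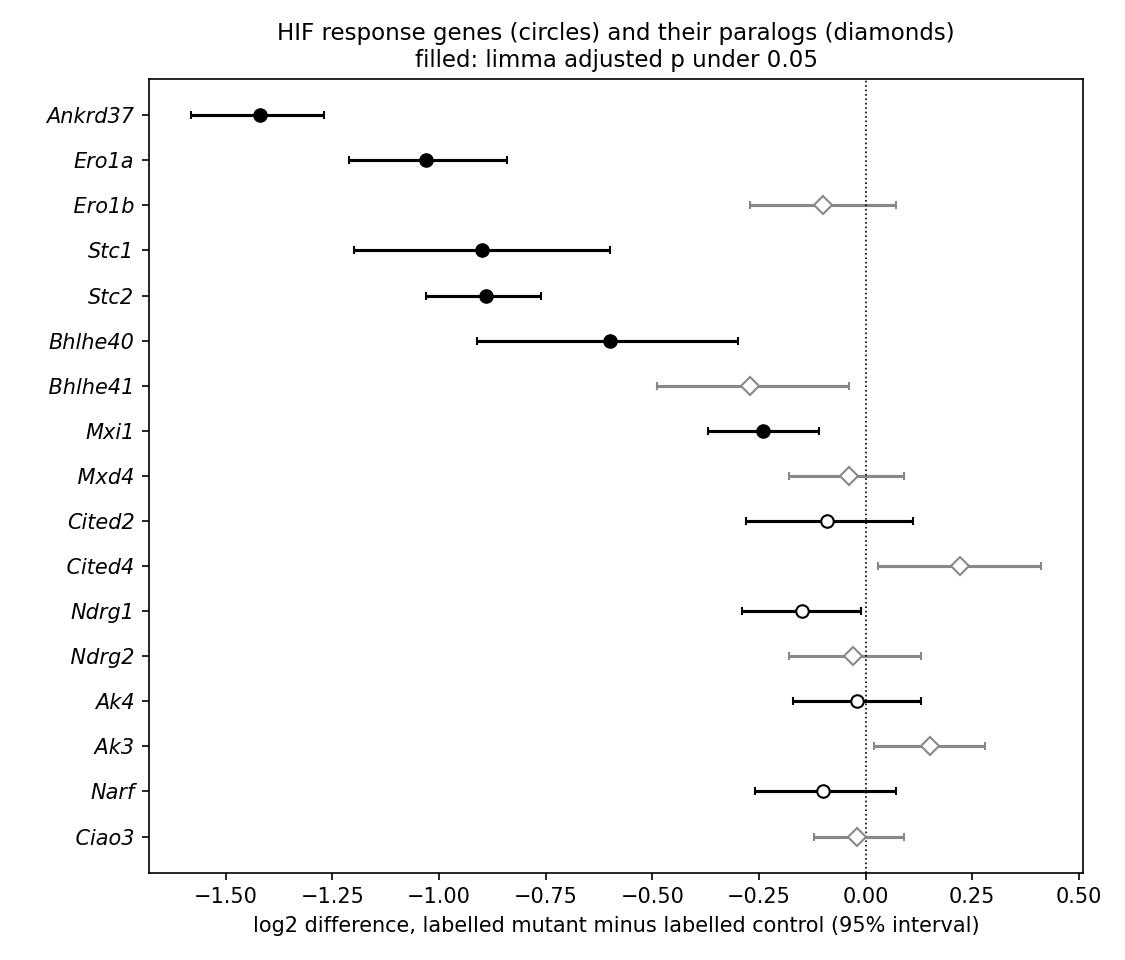
Log2 difference, arrays labelled mutant minus arrays labelled control (horizontal axis), of the 10 HIF response genes (circles) and 7 paralogs (diamonds), with 95% intervals from limma. Filled symbols, all of them circles, mark adjusted p under 0.05. Among the 10 genes the intervals of Cited2, Ak4 and Narf span 0, and among the paralogs those of Ero1b, Mxd4, Ndrg2 and Ciao3 do.

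The 10 genes were set beside 33 other HIF targets of metabolism, vessels, iron and matrix that had a probe set of their own. Of these 28 were lower in the arrays labelled mutant, 0 higher and 5 did not pass, with a median log2 difference of -0.81, against 6 of 10 and -0.42 for the genes described here. Egln3, a HIF prolyl hydroxylase, Car9, carbonic anhydrase 9, and Slc16a3, a lactate exporter, had the largest differences at -2.96, -2.88 and -2.32. Ankrd37 lay between Pdk1 at -1.59 and P4ha1 at -1.33, and Ndrg1, Cited2, Ak4 and Narf were, with Cxcr4, Car12, Pfkfb4 and Epo at -0.17, -0.13, 0.06 and 0.16, the 8 genes of both lists closest to 0. The fifth target that did not pass, Angptl4, was at -0.48. These neighbours were named after their values were seen. Whether the 2 lists differ was not tested.

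**Figure D5:**
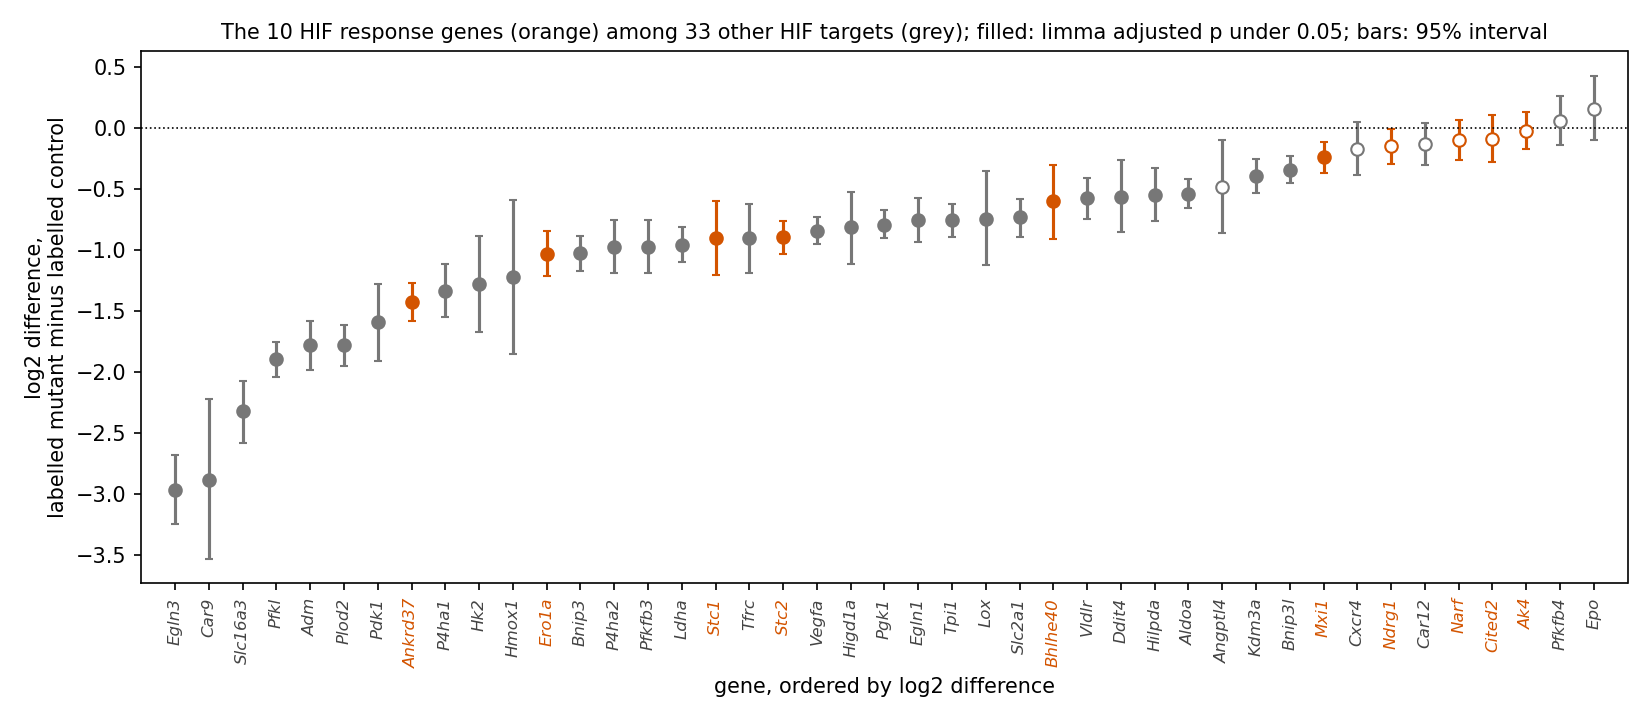
Log2 difference, arrays labelled mutant minus arrays labelled control (vertical axis), with 95% intervals from limma, of the 10 HIF response genes (orange) and 33 other HIF targets (grey), ordered along the horizontal axis. The 6 orange genes that passed (filled) run from -1.42 to -0.24, and the 4 that did not lie at the right with open symbols.

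Cell type markers moved with the same groups. All 8 endothelial markers were lower in the arrays labelled mutant, and their summed level (log2 of the summed linear values) was 13.47 to 13.62 in those arrays, against 14.08 to 14.28 in the arrays labelled control. Of 5 smooth muscle and pericyte markers 4 (Acta2, Cnn1, Tagln and Pdgfrb) were lower, with a summed level of 11.57 to 11.96 in the arrays labelled mutant and 12.24 to 12.46 in those labelled control. Alas2, the erythroid gene of haem synthesis and 1 of 2 red blood cell markers read, was 4.74-fold lower, and Podxl, 1 of 3 podocyte markers, was lower as well. Nphs1, another podocyte marker, had a log2 difference of 0.17 with groups apart, and Synpo one of -0.17. Neither passed (limma adjusted p = 0.147 and 0.341). Tubule markers that passed went the other way: 2 of 7 for the proximal tubule (Aqp1 and Slc22a8) were higher, with a summed level of 15.57 to 15.74 in the arrays labelled mutant and 15.36 to 15.57 in those labelled control. For the thick ascending limb 2 of 4 (Cldn16 and Kcnj1) were higher, with a summed level of 14.60 to 14.69 in the arrays labelled mutant and 14.39 to 14.50 in those labelled control. Higher too were 1 of 3 markers of the distal convoluted tubule (Trpm6), 1 of 4 of principal cells (Aqp3) and 1 of 4 of intercalated cells (Atp6v1b1). The other markers of these lists did not pass in the main fit. Of those, Aqp2 and Avpr2 of principal cells had estimates below 0, at -0.04 and -0.13, and the rest had estimates above it. These markers were named after their values were seen. Of them Slc22a8 lost its call in 6 of the 8 fits without 1 array, Aqp3 in 5, Tagln in 4 and Atp6v1b1 in 2. Of the leukocyte, fat cell and adrenal cortex markers read (4, 3 and 4), 0 passed limma in either direction, and 1, 0 and 1 had an unadjusted p under 0.05. With the replicate block the leukocyte marker Cd68 was called lower and the tubule markers Slc12a1 and Slc12a3 higher (limma adjusted p = 0.0334, 0.0456 and 0.0341). A log2 table has no value of 0 for an absent gene, so no marker was at 0. The part of cell makeup in the differences of the 10 genes was not tested.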

How the data were processed

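The authors' deposited table gives a log2 value for each of 35556 probe sets on 8 arrays. Per the labels' protocols, total RNA was isolated with TRIzol and RNeasy and labelled with biotin, and the submitters' processing notes name limma. How arrays were summarized and normalized, and the build, are not given in the sources used here. Values were used as deposited. Platform symbols were updated through Entrez identifiers to the GRCm38.p6 gene table: 21789 probe sets name 1 gene (21701 matched), 1621 several, and 12146 are unlisted. The probe set with the highest mean stood for each of 19936 genes.

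Groups were compared with limma 3.58.1 in R 4.3.3 (lmFit, eBayes, 1 factor, two-sided, Benjamini-Hochberg over all genes, threshold 0.05, 95% intervals), tested on simulated data. Paralog pairs were compared by exact permutation (scipy 1.17.1), adjusted over 8 pairs. The genes, lists and pairs were chosen with earlier results of these data known. Text names all members, paralogs, the 3 called genes with the largest difference of each pathway list (otherwise the largest), and the 3 genes most like Ankrd37. Deviations from group means correlated at 0.138, 0.153, 0.295 and 0.175 between same-numbered arrays, and at -0.193 to 0.111 between the others. No label says that the numbers pair the arrays. The main fit has no block, so its p-values take no account of any pairing, and the replicate block was run as an alternative. Alternatives were quantile normalization, median centring, the upper 60% of probe sets, array weights, the replicate block, eBayes with trend and robust, the mean of probe sets, a threshold of 0.01 and leaving out each array; leaving out mutant arrays 1 and 2 or 3 and 4, and the other Ak4 probe set, were added after the data were seen.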

Additional observations from a re-analysis of the deposited data

Results flagged for a closer look

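Among the 34 groups of 4 arrays checked (10 genes and 7 paralogs in both groups), 2 had an array far from the rest. Chance marks about 1 in 20 such groups. Bhlhe41 read 6.96 on control array 4, with the other control arrays at 7.34 to 7.42, and the gap was 0.833 of the group's range, above Dixon's critical value. Ak3 read 11.74 on control array 2, with the others at 11.85 to 11.87, a gap of 0.838 of the range. No array of either group was so marked for any of the 10 HIF response genes. The rule looks for a single far array and cannot mark a split into pairs. Bhlhe40 had such a split on the arrays labelled mutant, at 10.02, 10.02, 10.56 and 10.63.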

How the results depend on the processing

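With the replicate block, 5 of the 10 genes were called lower rather than 6 (Mxi1 was lost), and 1657 of all genes were called rather than 1442; the block changed no other call among the 10. At a threshold of 0.01, 602 genes were called in all and 4 of the 10. Without 1 array in turn, 4 to 5 of the 10, 25 to 28 of the 33 other HIF targets and 902 to 1368 of all genes were called, the lowest being 917 without mutant array 2, 903 without control array 2 and 902 without control array 3. The sign turned for 2 genes that had not passed. The Ak4 difference was 0.07 after quantile normalization, -0.05 to 0.03 without 1 array (0.03 without mutant array 1, 0.00 without control array 2) and 0.05 without mutant arrays 1 and 2, and the Narf difference was 0.02 without mutant arrays 3 and 4. The cause was not tested. Of 181 values of the 10 genes under alternatives, 159 kept direction and side of the threshold, 17 kept direction but lost the call and 5 turned. Paralog contrasts gave 0 calls under both other scalings and with the mean of probe sets, which says nothing of stability, since at least 5 of the 8 would need the smallest possible p for any to pass; with 1 array left out no permutation p can be under 0.0571, and at a threshold of 0.01 none can pass, so these were not counted. A log2 table holds no background reading, so dim probe sets could not be called absent.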
